A study of Mus musculus with 6 samples.

Results

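Genes of heat shock proteins, their co-chaperones and the chaperonins were followed in 6 RNA-Seq libraries of mouse CD8+ T cells, the lymphocytes that kill infected and tumour cells. A gene was a member if its name in the deposited files began with Hspa, Hspb, Hspd, Hspe, Hsph, Dnaja, Dnajb, Dnajc or Cct and a digit, or was Tcp1, Hsp90aa1, Hsp90ab1, Hsp90b1 or Trap1, and 15 names that hold -ps, as pseudogenes do, were dropped. This gave 83 of the 54446 genes. They were 11 HSP70 genes, 3 HSP110 genes, 4 HSP90 genes, 10 CCT/TRiC genes, 2 genes of the mitochondrial chaperonin, 8 small heat shock genes, and 4 DNAJA, 13 DNAJB and 28 DNAJC genes. By the compartment of the protein, assigned from general knowledge, 45 belong to the cytosol and nucleus, 13 to the endoplasmic reticulum (ER), 10 to the mitochondrion and 15 to other or mixed places. A total of 8 members (Hspa12a, Hspb2, Hspb3, Hspb7, Hspb8, Dnajc22, Dnajc5b and Dnajc5g) were listed at 0 in all libraries, 10 more averaged under 1 FPKM with no value above 2.90 FPKM, and 65 were tested.

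The cells came from spleens of C57BL/6 mice, wild type and 8 weeks old, by negative selection. Each group had 2 libraries, and no source used here states whether these came from separate animals or cultures, so the p values measure the spread between these libraries, which may be technical. The unstimulated group was fresh cells. The control group was activated for 72 h with antibodies to CD3, coated on the plate, and to CD28, without magnets. The SMF group was activated in the same way for 72 h on permanent magnets that gave a static magnetic field (SMF) of 0.3 T. Folder dates in the file headers, read here as sequencing runs, place replicate 1 of the unstimulated and control groups in 2017 (month 06), replicate 2 of both in 2017 (month 11), and both SMF libraries in 2018 (month 10). No run held libraries of both the SMF and the control group (0 of 3), so for SMF against control the field and the run cannot be told apart.

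Molecular chaperones bind unfolded or partly folded proteins. HSP70 proteins bind short exposed stretches and release them with the turnover of ATP, J proteins (DNAJ) hand clients to HSP70 and start that turnover, HSP110 proteins exchange its nucleotide, HSP90 proteins act late on kinases and receptors, and chaperonins enclose a client in a barrel. Heat shock factor 1 raises many of these genes when proteins unfold, and T cells are known to raise chaperones when they leave rest and begin to grow. Levels are FPKM (fragments scaled to library size and transcript length), summed over the transcripts of a gene. FPKM is per length, so that levels of different genes can be set side by side.

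The members together summed to 2531 and 3214 FPKM in unstimulated, 4737 and 5113 FPKM in control and 8103 and 8368 FPKM in SMF libraries. The groups did not overlap, and the order was unstimulated, control, SMF. As a share of the FPKM of all genes this was 0.527% and 0.644%, then 0.882% and 0.940%, then 1.66% and 1.69%. As a share of the FPKM of protein-coding genes alone it was 1.07% and 1.30%, then 1.80% and 1.86%, then 2.39% and 2.46%. Protein-coding genes took 68.7% to 69.2% of all FPKM in the SMF libraries and 49.1% to 50.5% in the other 4, so the step from control to SMF is smaller on the second scale. In bulk samples, fewer cells of a type and less RNA per cell cannot be told apart.

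Depth, as bases covered, was 67.4 and 132 Mb in the unstimulated, 64.4 and 172 Mb in the control and 259 and 227 Mb in the SMF libraries, and 12 to 21 of the 83 members were listed at 0 in a library. All 4 markers of CD8 T cells were present in every library. They summed to 406 and 538 FPKM in unstimulated, 200 and 325 FPKM in control and 544 and 477 FPKM in SMF libraries. Between SMF and control, Cd8a and Cd3d were higher in both SMF libraries, and Cd8b1 and Cd3e overlapped. The 3 activation markers summed to 21.4 and 20.2 FPKM in unstimulated, 1596 and 1684 FPKM in control and 2442 and 4482 FPKM in SMF libraries. Of the B cell markers, Cd79a was at 57.2 and 44.8 FPKM in unstimulated, 13.4 and 6.96 FPKM in control and 1.85 and 2.43 FPKM in SMF libraries. Ms4a1 was at 13.8 and 10.1 FPKM in the unstimulated and at 0 to 0.864 FPKM in the stimulated libraries, with 0 in both SMF libraries. The 3 myeloid markers summed to 116 and 139 FPKM and to 41.1 to 53.8 FPKM, with Lyz2 at 0 after stimulation and Csf1r present in all libraries. The B cell, myeloid and activation markers moved with every comparison against the unstimulated group below. The CD8 T cell and activation sums and Cd79a also lay apart between SMF and control. The part of all these markers in the results was not tested.

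**Figure D1:**
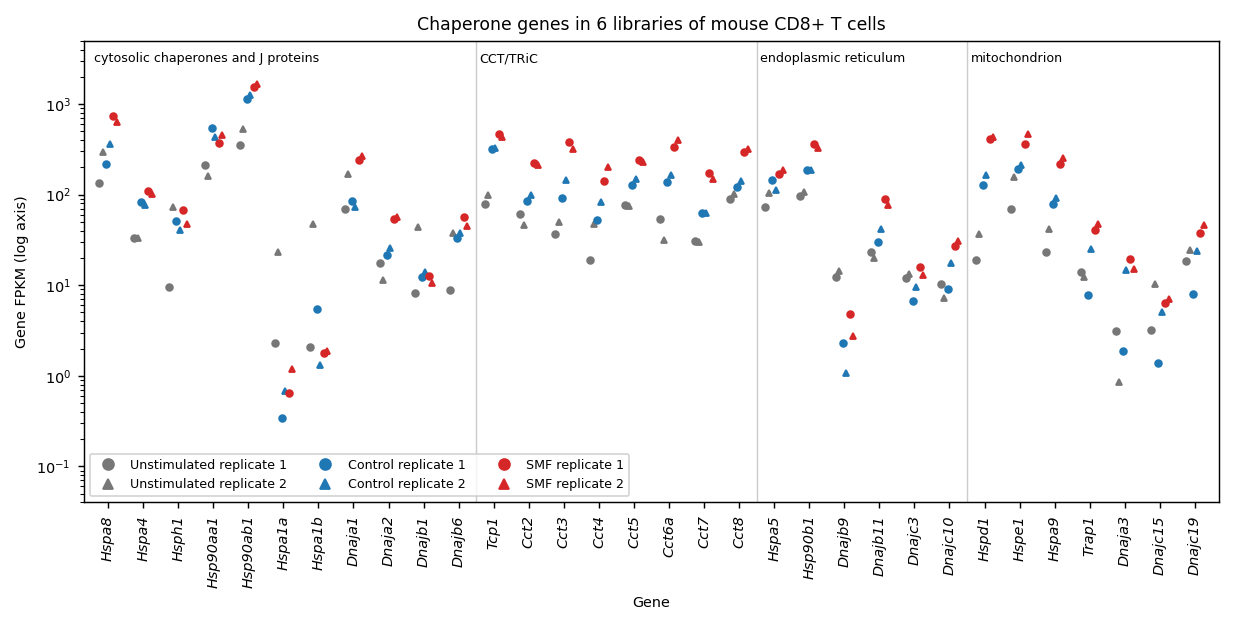
FPKM of 32 chaperone genes (log axis) in each of the 6 libraries, grouped by family and compartment. Circles are replicate 1 and triangles replicate 2, and the CCT/TRiC genes, Hspd1, Hspe1 and Hspa9 climb from unstimulated through control to SMF, while Hspa1a, Hspa1b and Dnajb1 are highest in unstimulated replicate 2.

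A gene was called where its fold change on log2(FPKM + 1) was at least 2 and limma's unadjusted p at most 0.05, and adjusted p values are by Benjamini-Hochberg over all 14991 genes tested. In control against unstimulated cells, 13 of 65 members rose and 5 fell, where 12.3% of all genes tested were called higher and 12.6% lower. With an adjusted p under 0.05 there were 7 higher and 1 lower, against 4.52% and 3.96% of all genes. The median log2 fold change was 0.59 over the members and -0.05 over all genes tested. Both control libraries lay above both unstimulated ones for 30 members (24.8% of all genes) and below them for 11 (26.6% of all genes). Replicates 1 and 2 of these groups came from the same runs, and within the runs 34 members were higher in control cells in both and 15 lower in both (30.9% and 32.5% of all genes). The medians of the members were 0.38 and 0.65 in these runs, and those of all genes 0 in each.

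In SMF-treated against unstimulated cells 33 members rose and 4 fell, where 22.4% of all genes were called higher and 14.8% lower. The adjusted p was under 0.05 for 28 and 2 of them (14.2% and 9.4% of all genes). The libraries did not overlap for 40 higher and 12 lower members (39.7% and 26% of all genes), and the median was 1.23 against 0.27 for all genes. For protein-coding genes the higher share was 49.2% and the median 0.60. Among protein-coding genes, 13.5% were called higher in control against unstimulated cells and 28% in SMF-treated against unstimulated cells. With every library shifted to one median the counts were 28 higher and 8 lower (18.4% and 18% of all genes).

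In SMF-treated against control cells 19 members were called higher and none lower (0), where 12.5% of all genes and 15.9% of protein-coding genes were called higher and 5.72% of all genes lower. No member had an adjusted p under 0.05 (0 of 65, against 0.02% of all genes for higher and 0.00667% for lower), and the lowest adjusted p of a member was 0.136. The SMF libraries were both above the control libraries for 39 members and both below for 4 (37.4% and 17.4% of all genes). For protein-coding genes the share above was 48.7%. The median log2 fold change of the members was 0.55, against 0.32 for all genes and 0.57 for protein-coding genes. Shifting every library to one median moved the median of all genes by over 0.1, from 0.32 to -0.02, and left 6 members higher and 1 lower (5.85% of all genes higher and 9.61% lower). With one sum of FPKM over protein-coding genes, a scaling chosen after seeing the data, 7 were higher and 1 lower (6.21% of all genes higher and 8.72% lower). Without control replicate 1, SMF replicate 1 or SMF replicate 2 the members called higher were 9, 12 and 10, with 7.49%, 5.61% and 6.43% of all genes called higher. The 4 members called higher under every setting that was not added after seeing the data, each library left out included, were Cct3, Cct7, Hspa9 and Hspd1, and Dnajb2 was called under each of these but a filter of 5 FPKM, which it did not pass.

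Within the set, 23 of the 65 members tested had unstimulated libraries below control libraries and control libraries below SMF libraries with no overlap, against 11% of all genes tested. They held all 8 CCT/TRiC subunits that were tested, both genes of the mitochondrial chaperonin, Hspa9, Hspa5, Hspa4, Hspa14, Hsp90ab1 and Hsp90b1. The others were Dnaja2, Dnajb11, Dnajc2, Dnajc9, Dnajc11, Dnajc13 and Dnajc21.

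**Figure D2:**
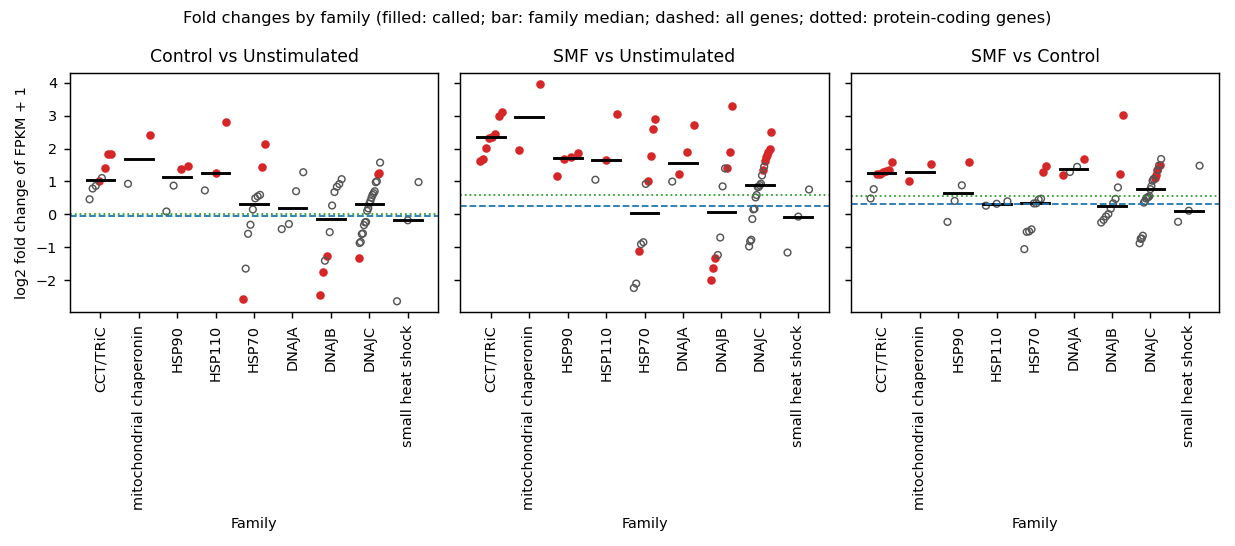
log2 fold changes of FPKM + 1 for the 65 members tested, by family (x axis), in the 3 comparisons. Filled points are called members, bars are family medians, and the dashed and dotted lines are the medians of all genes and of protein-coding genes; in SMF against control the CCT/TRiC median of 1.26 lies above both lines and the HSP110 median of 0.32 near the lower one.

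The mitochondrial chaperonin had the highest family median in both comparisons with unstimulated cells, 1.67 for control and 2.96 for SMF. Hspd1 (HSP60) forms the barrel in which imported proteins fold, and Hspe1 (HSP10) forms its lid. Hspd1 was at 18.9 and 36.7 FPKM in unstimulated, 129 and 165 FPKM in control and 414 and 436 FPKM in SMF libraries. The 3 groups were apart, and each SMF library was more than 10 times above each unstimulated one. Hspd1 rose in control against unstimulated cells (log2 fold change 2.42 ± 0.36 (SE), adjusted p = 0.0182) and in SMF-treated against unstimulated cells (log2 fold change 3.96 ± 0.36 (SE), adjusted p = 0.00399). It was also called higher in SMF-treated against control cells (log2 fold change 1.54 ± 0.36 (SE), adjusted p = 0.141). Hspe1 was at 69.8 and 158 FPKM in unstimulated, 193 and 209.7 FPKM in control and 363 and 465 FPKM in SMF libraries. Its groups did not overlap either, but unstimulated replicate 2 stood close below the control libraries. Hspe1 rose in SMF-treated against control cells (log2 fold change 1.03 ± 0.40 (SE), adjusted p = 0.226) and was not called in control against unstimulated cells (log2 fold change 0.93 ± 0.40 (SE), adjusted p = 0.207). The ratio of Hspd1 to Hspe1 FPKM went from 0.271 and 0.233 in unstimulated cells to 0.668 and 0.785 in control cells and 1.14 and 0.937 in SMF-treated cells. With 2 libraries a group an exact permutation test over libraries cannot go below p = 0.333, so the ratios are given without a test.

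Hspd1 (chr1:55077835-55088243, minus strand) and Hspe1 (chr1:55088132-55091307, plus strand) lie head to head on chromosome 1 of GRCm38, and 4.24% and 7.60% of their exon bases face the other gene. For 15 members, Hspa8 and Hsp90aa1 among them, no promoter sequence was at hand, so these genes were not searched. For the other 68, windows of 250 bases before to 50 bases after a RefSeq start (GRCm38.p6) were at hand. They were searched on both strands for the heat shock element, spelled as 3 blocks that alternate between GAA and TTC with 2 free bases between blocks, where matches may overlap. It was in windows of 4 of 68 members (5.88%: Hspd1, Hspe1, Hsph1 and Dnajb6) and of 0.662% of 27025 genes. Both chaperonin genes hold it in one and the same stretch, chr1:55088039-55088096, shown here as each gene reads it, with the overlapping matches in capitals.
Hspd1, minus strand: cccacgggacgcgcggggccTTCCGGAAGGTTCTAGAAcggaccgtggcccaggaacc
Hspe1, plus strand: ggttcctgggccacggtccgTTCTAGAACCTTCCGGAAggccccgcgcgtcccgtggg
The matches begin 144 bases before the inner of the Hspd1 starts in the table, the window of the outer start holding none, and 89 bases before the Hspe1 start. The letters are a description, and no binding was measured.

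**Figure D3:**
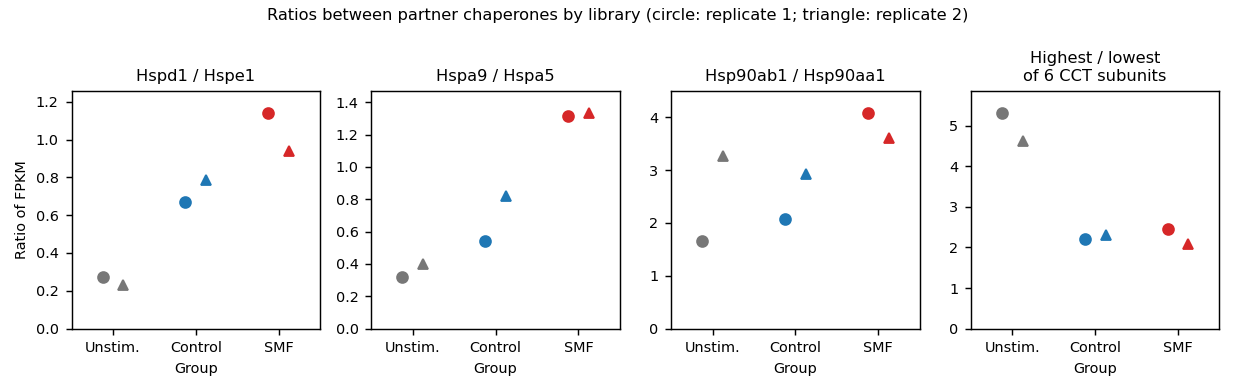
Ratios of FPKM between partner chaperones in each library (circle, replicate 1; triangle, replicate 2): Hspd1 over Hspe1, Hspa9 over Hspa5, Hsp90ab1 over Hsp90aa1, and the highest over the lowest of 6 CCT subunits on protein-coding transcripts. Both SMF libraries are highest in the first 3 panels, and the unstimulated libraries are highest in the last, at 5.32 and 4.62.

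Of the 9 mitochondrial members tested, the chaperonin included, 6 were called higher in SMF-treated against control cells, with a median of 1.44, where 12.5% of all genes were. The count was 2 with one median and 3 with one sum of coding FPKM, where 5.85% and 6.21% of all genes were called higher. The median of 1.44 uses the SMF and control libraries alone, so leaving out an unstimulated library cannot move it. Against unstimulated cells 6 were called higher in SMF-treated cells (22.4% of all genes) and 2 in control cells (12.3% of all genes). The mitochondrial members took 6.71% and 9.18% of the FPKM of all members in unstimulated, 9.35% and 11% in control and 14.3% and 15.7% in SMF libraries. Hspa9 (mortalin), the HSP70 that pulls proteins through the inner membrane, was at 23.0 and 41.5 FPKM in unstimulated, 77.9 and 92.8 FPKM in control and 219.7 and 252 FPKM in SMF libraries. It rose in control against unstimulated cells (log2 fold change 1.43 ± 0.34 (SE), adjusted p = 0.0561) with no overlap. It rose again in SMF-treated against control cells (log2 fold change 1.46 ± 0.34 (SE), adjusted p = 0.144). Trap1, the HSP90 of mitochondria, was at 14 and 12.3 FPKM in unstimulated, 7.71 and 25 FPKM in control and 40.5 and 48.0 FPKM in SMF libraries. Control replicate 1 was the lowest library and the SMF libraries were the highest (SMF against control: log2 fold change 1.58 ± 0.55 (SE), adjusted p = 0.198). Trap1 was not called in control against unstimulated cells, with a log2 fold change of 0.09.

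Dnaja3 (Tid1), the J protein of the matrix, was at 3.12 and 0.844 FPKM in unstimulated, 1.88 and 14.6 FPKM in control and 19.5 and 15.2 FPKM in SMF libraries, and its control libraries lay far apart. It rose in SMF-treated against unstimulated cells (log2 fold change 2.72 ± 0.88 (SE), adjusted p = 0.0689). Dnajc11, of the complex that shapes cristae, was at 16.0 and 9.26 FPKM in unstimulated, 17.0 and 22.7 FPKM in control and 54.3 and 47.9 FPKM in SMF libraries, with the SMF libraries above all others. It rose in SMF-treated against control cells (log2 fold change 1.33 ± 0.38 (SE), adjusted p = 0.168). Dnajc19 and Dnajc15 are J proteins at the import motor of the inner membrane. Dnajc19 was at 18.5 and 24.6 FPKM in unstimulated, 8.03 and 23.8 FPKM in control and 37.2 and 46.4 FPKM in SMF libraries. It was called higher in SMF-treated against control cells (log2 fold change 1.51 ± 0.53 (SE), adjusted p = 0.201), but on its protein-coding transcripts alone the log2 fold change turned to -0.24. Dnajc15 was at 3.22 and 10.4 FPKM in unstimulated, 1.38 and 5.09 FPKM in control and 6.38 and 7.08 FPKM in SMF libraries and was called in no comparison. The genes whose proteins work beside these in mitochondria, a list of 6 tested, had 2 called higher in control and 3 in SMF-treated against unstimulated cells and 1 in SMF-treated against control cells (12.3%, 22.4% and 12.5% of all genes), among them Lonp1, a matrix protease, at 6.72 and 10.2 FPKM in unstimulated, 38.2 and 51.1 FPKM in control and 56.8 and 62.2 FPKM in SMF libraries.

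CCT/TRiC is the cytosolic chaperonin, a ring of 8 different subunits that folds actin, tubulin and other proteins. All 8 subunit genes were tested, and Cct6b and Cct8l1, relatives that peaked at 0.80 and 0.95 FPKM, were not. In control against unstimulated cells 4 of 8 rose, in SMF-treated against unstimulated cells 8 of 8, and in SMF-treated against control cells 6 of 8, with medians of 1.05, 2.34 and 1.26. Of all genes, 12.3%, 22.4% and 12.5% were called higher in these comparisons. The libraries of all 8 were apart in the higher direction in each comparison, as were those of 24.8%, 39.7% and 37.4% of all genes. For protein-coding genes these shares were 27.6%, 49.2% and 48.7%. With one median or one sum of coding FPKM, the 8 subunits of SMF against control stayed above 0, with medians of 0.91 and 0.92 and 2 of 8 called, Cct3 and Cct7. On these scalings 5.85% and 6.21% of all genes were called higher, and the medians of all genes were -0.02 and 0.06.

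Cct3 was at 37.1 and 49.6 FPKM in unstimulated, 92.4 and 144 FPKM in control and 381 and 322 FPKM in SMF libraries. Its log2 fold change of SMF against control was the largest of the subunits at the gene level (log2 fold change 1.59 ± 0.31 (SE), adjusted p = 0.136). Protein-coding transcripts held 85.8% and 60.2% of its FPKM in control but 45.1% and 47.6% in SMF libraries. On these alone, a choice made after seeing the data, it was at 79.3 and 86.7 FPKM in control and 172 and 153 FPKM in SMF libraries. That step was under the 2-fold limit, so Cct3 was not called there. Cct7 was at 30.8 and 30.2 FPKM in unstimulated, 62.2 and 62.0 FPKM in control and 173 and 148 FPKM in SMF libraries, with replicates nearly equal in the unstimulated and control groups. It rose in SMF-treated against control cells (log2 fold change 1.35 ± 0.25 (SE), adjusted p = 0.136). Cct6a was at 53.6 and 31.4 FPKM in unstimulated, 138 and 163 FPKM in control and 335 and 396 FPKM in SMF libraries. It rose in control against unstimulated cells (log2 fold change 1.85 ± 0.32 (SE), adjusted p = 0.0255) and in SMF-treated against control cells (log2 fold change 1.27). The groups were apart for all 3 genes.

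Cct2 was at 60.7 and 46.2 FPKM in unstimulated, 85.6 and 98.9 FPKM in control and 222 and 215 FPKM in SMF libraries, and Cct8 was at 89.2 and 102 FPKM in unstimulated, 122 and 142 FPKM in control and 297 and 316 FPKM in SMF libraries. Both were called in SMF-treated against control cells, at log2 fold changes of 1.24 and 1.22, and in neither was control called against unstimulated. Cct4 was at 19.2 and 47.4 FPKM in unstimulated, 52.2 and 83.9 FPKM in control and 140.3 and 200 FPKM in SMF libraries, with unstimulated replicate 1 far below replicate 2. It rose in SMF-treated against control cells by 1.33 on the log2 scale. Cct5 was at 76.8 and 74.8 FPKM in unstimulated, 128 and 151 FPKM in control and 242 and 232 FPKM in SMF libraries. At the gene level its step from control to SMF, 0.77, was under the 2-fold limit. On protein-coding transcripts it was at 82.1 and 123 FPKM in control and 222 and 211 FPKM in SMF libraries, a step over that limit.

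Tcp1 encodes the alpha subunit, and its pattern depended on which transcripts were summed. At the gene level it was at 79.7 and 100.2 FPKM in unstimulated, 316 and 325 FPKM in control and 469.8 and 429 FPKM in SMF libraries. It rose in control against unstimulated cells (log2 fold change 1.83 ± 0.22 (SE), adjusted p = 0.0130) and was not called in SMF-treated against control cells (log2 fold change 0.48 ± 0.22 (SE), adjusted p = 0.275). A single processed transcript of 329 bases held 64.1 and 70.3 FPKM in unstimulated, 222 and 231 FPKM in control and 204 and 180.2 FPKM in SMF libraries. The protein-coding transcripts alone were at 12.8 and 20.1 FPKM in unstimulated, 78.1 and 75.7 FPKM in control and 188 and 194 FPKM in SMF libraries, and on these the log2 fold change of SMF against control was 1.30, which was called. Of the exon bases of Tcp1, 14.2% face genes on the other strand.

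On protein-coding transcripts of Cct2, Cct3, Cct4, Cct5, Cct7 and Cct8, the subunits lay closer to one another after stimulation. The highest was 5.32 and 4.62 times the lowest in unstimulated, 2.20 and 2.31 times in control and 2.46 and 2.09 times in SMF libraries. Tcp1, described above, and Cct6a, which has no transcript of the protein-coding type in the annotation used, were left out of this ratio. Over all transcripts of the 8 subunits the same ratio was 4.65 and 3.37, 6.06 and 5.24, and 3.35 and 2.89, with Tcp1 the highest in the stimulated libraries. Of 8 tested genes for prefoldin, which carries clients to CCT, and CCT cofactors, 2 rose in control and 5 in SMF-treated against unstimulated cells (12.3% and 22.4% of all genes), Pfdn1 at 1.86 and 3.03 FPKM in unstimulated, 17.9 and 14.2 FPKM in control and 16.1 and 20.9 FPKM in SMF libraries.

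The 4 HSP90 genes took 26.9% and 25.2% of the members' FPKM in unstimulated, 39.7% and 37.3% in control and 28.5% and 29.9% in SMF libraries. Hsp90ab1, the constitutive cytosolic HSP90, was the highest member in every library, at 356 and 527 FPKM in unstimulated, 1136 and 1263 FPKM in control and 1527 and 1658 FPKM in SMF libraries. It rose with stimulation (log2 fold change 1.47 ± 0.24 (SE), adjusted p = 0.0227). Its log2 fold change of SMF against control was 0.41, which was not called. Hsp90aa1, the inducible cytosolic HSP90, was at 214 and 162 FPKM in unstimulated, 549 and 431 FPKM in control and 374 and 461 FPKM in SMF libraries, and its SMF and control libraries overlapped. It rose with stimulation (log2 fold change 1.38 ± 0.26 (SE), adjusted p = 0.0303) and had a log2 fold change of -0.23 in SMF against control. On protein-coding transcripts it was at 23.7 and 84.1 FPKM in unstimulated, 101 and 209 FPKM in control and 288 and 348 FPKM in SMF libraries, with the groups apart. The rest sat mainly on short retained-intron transcripts, one of which, 487 bases long, held 147 and 67.1 FPKM in unstimulated, 259 and 205 FPKM in control and 67.5 and 23.2 FPKM in SMF libraries. Hsp90ab1 stood at 1.66 and 3.26 times Hsp90aa1 in the unstimulated, 2.07 and 2.93 times in the control and 4.08 and 3.60 times in the SMF libraries, and the unstimulated and control ranges of this ratio overlapped. The open reading frames of both genes are 76.5% identical.

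Hspa8 (HSC70), the constitutive HSP70 of the cytosol, was at 134 and 296 FPKM in unstimulated, 219 and 358 FPKM in control and 742 and 629 FPKM in SMF libraries. The unstimulated and control libraries overlapped, and both SMF libraries lay above them (SMF against control: log2 fold change 1.28 ± 0.43 (SE), adjusted p = 0.189). Its called rise in SMF-treated against control cells was lost with the shift to one median (log2 fold change 0.94). Hspa14, an HSP70 found at ribosomes, was at 4.71 and 25.3 FPKM in unstimulated, 60.3 and 46.1 FPKM in control and 78.6 and 67.0 FPKM in SMF libraries, with unstimulated replicate 1 the lowest library. It rose in control against unstimulated cells (log2 fold change 2.13 ± 0.69 (SE), adjusted p = 0.113). Hspa4 (APG-2), an HSP110 that exchanges the nucleotide of HSP70, was at 32.8 and 33.3 FPKM in unstimulated, 83.4 and 76.2 FPKM in control and 109 and 102 FPKM in SMF libraries. It rose with stimulation (log2 fold change 1.25 ± 0.25 (SE), adjusted p = 0.0350) and was not called in SMF against control (0.40). Hspa4l was low in resting cells, at 0.733 and 1.08 FPKM in unstimulated, 5.70 and 25 FPKM in control and 11.3 and 19.5 FPKM in SMF libraries. It had the largest log2 fold change of a member in control against unstimulated cells (log2 fold change 2.80 ± 0.72 (SE), adjusted p = 0.0676).

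Not all HSP70 genes went up. The family median in SMF-treated against unstimulated cells was 0.04, against 0.27 for all genes. Of 10 genes 4 were called higher and 1 lower, where 22.4% of all genes were called higher and 14.8% lower. With every library at one median the family median was -0.21, with 3 called higher and 2 lower (18.4% and 18% of all genes). Hspa1l, a testis HSP70, was at 49.3 and 45.1 FPKM in unstimulated, 37.7 and 25.6 FPKM in control and 25.5 and 18 FPKM in SMF libraries. It fell in SMF-treated against unstimulated cells (log2 fold change -1.10 ± 0.35 (SE), adjusted p = 0.0666), and 71.9% of its exon bases face Gm10501 on the other strand. Hspa2, Hspa12b and Hspa13 stayed under 8 FPKM in every library and were called in no comparison.

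For several classic heat-inducible genes 1 unstimulated library stood apart. This group of genes was picked out after the values were seen. Hspa1a and Hspa1b, the strongly inducible HSP70 genes, lie side by side on chromosome 17. Hspa1a was at 2.30 and 23.3 FPKM in unstimulated, 0.345 and 0.686 FPKM in control and 0.649 and 1.19 FPKM in SMF libraries. Hspa1b was at 2.07 and 46.9 FPKM in unstimulated, 5.45 and 1.33 FPKM in control and 1.78 and 1.88 FPKM in SMF libraries. Unstimulated replicate 2 was 10.1 and 22.7 times replicate 1, and every other library was at 5.45 FPKM or less. The reading frames of both genes are 99.5% identical, so that reads could be split between them. Their sum was 4.37 and 70.2 FPKM in the unstimulated, 5.79 and 2.01 FPKM in the control and 2.43 and 3.07 FPKM in the SMF libraries. Hspa1a was called lower in control against unstimulated cells (log2 fold change -2.57 ± 0.98 (SE), adjusted p = 0.160), and without unstimulated replicate 2 its log2 fold change was -1.13. Also, 19% of its exon bases face Gm20481. No match to the heat shock element as spelled above was in the windows of these genes (0 matches).

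Dnajb1 (HSP40), the main inducible J protein, was at 8.22 and 44.2 FPKM in unstimulated, 12.3 and 13.8 FPKM in control and 12.5 and 10.6 FPKM in SMF libraries. Again unstimulated replicate 2 was apart, and the other 5 libraries lay between 8.22 and 13.8 FPKM. Hsph1 (HSP105) was at 9.43 and 73.3 FPKM in unstimulated, 50.6 and 40.3 FPKM in control and 67.3 and 47.8 FPKM in SMF libraries, with unstimulated replicate 1 as the low library. Its protein-coding transcript was at 6.88 and 7.74 FPKM in unstimulated, 6.95 and 19.2 FPKM in control and 18.9 and 42.2 FPKM in SMF libraries, so that on it the unstimulated replicates were alike. Dnajb6, an inducible J protein that holds back aggregation, was at 8.76 and 37.5 FPKM in unstimulated, 33.6 and 38.0 FPKM in control and 56.1 and 44.6 FPKM in SMF libraries. Neither Hspb1 (HSP27), at 1.87 and 1.44 FPKM, nor the HSP70 co-chaperone Bag3, at 1.44 and 0.453 FPKM, was higher in replicate 2. Over all 65 members, 15 were at least 2-fold above replicate 1 in unstimulated replicate 2 and 4 at least 2-fold below (all genes: 19.2% above). In all, 29.2% of members were 2-fold apart between the unstimulated replicates, 23.1% between the control replicates and 10.8% between the SMF replicates, against 32.6%, 32.6% and 19% of all genes. Whether handling of the cells differed was not tested.

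**Figure D4:**
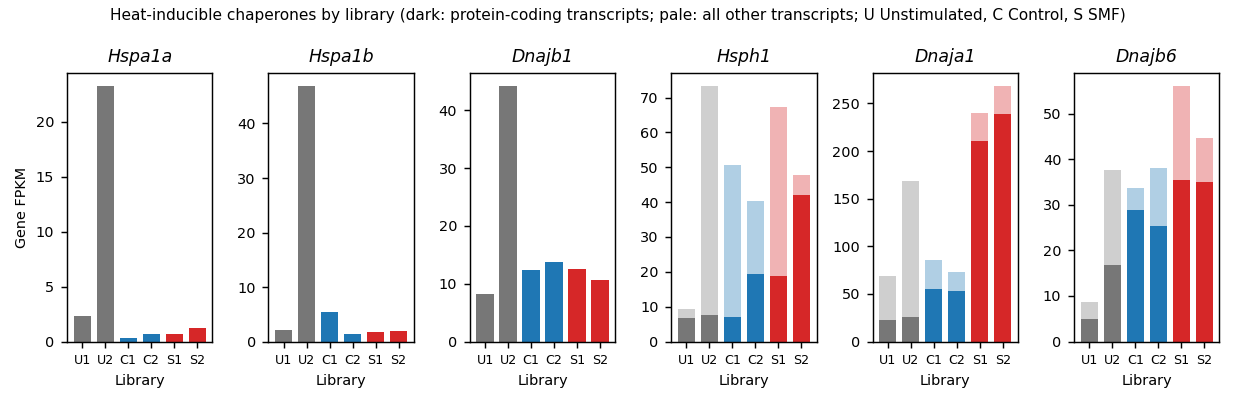
FPKM of 6 heat-inducible genes in each library, split into protein-coding transcripts (dark) and all other transcripts (pale), with a separate linear scale per gene from 0. Unstimulated replicate 2 (U2) is highest for Hspa1a, Hspa1b and Dnajb1, while the pale part makes up most of its bars for Hsph1 and Dnaja1.

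Dnaja1 and Dnaja2 are the main J partners of cytosolic HSP70. Dnaja1 was at 69.2 and 168 FPKM in unstimulated, 85.5 and 73.0 FPKM in control and 239.9 and 268 FPKM in SMF libraries. Both SMF libraries were above all others, and it rose in SMF-treated against control cells (log2 fold change 1.67 ± 0.43 (SE), adjusted p = 0.152). On protein-coding transcripts it was at 22.9 and 25.3 FPKM in unstimulated, 55.5 and 53.5 FPKM in control and 210.1 and 239 FPKM in SMF libraries. On these the control libraries were above both unstimulated ones, with a log2 fold change of 1.15, where the gene level gave -0.45. One protein-coding transcript of 826 bases, listed at 0 in the unstimulated and control libraries, held 153 and 176 FPKM in the SMF libraries and so most of the SMF level of Dnaja1. Dnaja2 was at 17.5 and 11.3 FPKM in unstimulated, 21.7 and 25.8 FPKM in control and 53.8 and 56.7 FPKM in SMF libraries, with the groups in order and apart (SMF against control: log2 fold change 1.19 ± 0.34 (SE), adjusted p = 0.168). Dnaja4 stayed under 7 FPKM and was not called.

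Of the DNAJB genes, 3 fell in control against unstimulated cells and 0 rose, where 12.6% of all genes were called lower and 12.3% higher. Dnajb9 (ERdj4), which helps remove misfolded proteins of the ER, was at 12.4 and 14.2 FPKM in unstimulated, 2.32 and 1.08 FPKM in control and 4.76 and 2.73 FPKM in SMF libraries. It fell in control against unstimulated cells (log2 fold change -2.44 ± 0.52 (SE), adjusted p = 0.0414), the only fall with an adjusted p under 0.05 there. Dnajb13, a J protein of cilia and sperm tails, was at 82.6 and 113 FPKM in unstimulated, 33.6 and 23.8 FPKM in control and 35.9 and 15.5 FPKM in SMF libraries, and 11.2% of its exon bases face Ucp2. It fell in control (log2 fold change -1.73 ± 0.46 (SE), adjusted p = 0.0720) and in SMF-treated cells (log2 fold change -1.98 ± 0.46 (SE), adjusted p = 0.0293) against unstimulated cells. Dnajb4 was at 10.2 and 7.96 FPKM in unstimulated, 2.83 and 3.55 FPKM in control and 3.62 and 2.46 FPKM in SMF libraries, with both unstimulated libraries on top. It fell in control against unstimulated cells (log2 fold change -1.26 ± 0.47 (SE), adjusted p = 0.153). Dnajb2, which binds ubiquitinated clients, stayed at 1.13 FPKM or less outside the SMF group, with 0 and 0.462 FPKM in unstimulated, 0 and 1.13 FPKM in control and 8.37 and 13.8 FPKM in SMF libraries. It had the largest log2 fold change of a member in SMF-treated against control cells (log2 fold change 3.02 ± 0.66 (SE), adjusted p = 0.140). With one median or one sum of coding FPKM it was 2.67 and 2.77.

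Among the DNAJC genes of the cytosol and nucleus, Dnajc2 (MPP11), a J protein at the ribosome that works with Hspa14, was at 21.6 and 22.9 FPKM in unstimulated, 31.8 and 42.6 FPKM in control and 84.9 and 84.8 FPKM in SMF libraries. Its groups were apart and it rose in SMF-treated against control cells (log2 fold change 1.18 ± 0.29 (SE), adjusted p = 0.148). Dnajc9, a histone chaperone, was at 51.2 and 26.5 FPKM in unstimulated, 76.2 and 71.1 FPKM in control and 85.2 and 105 FPKM in SMF libraries and was not called against control cells. Dnajc7, which holds clients between HSP70 and HSP90, had the next highest mean after Hsp90ab1 in the unstimulated group, at 309.8 and 174 FPKM in unstimulated, 105 and 80.8 FPKM in control and 128 and 136 FPKM in SMF libraries. It fell in control against unstimulated cells (log2 fold change -1.33 ± 0.33 (SE), adjusted p = 0.0639). Its processed transcripts summed to 249 and 108 FPKM in the unstimulated, 76.3 and 27.8 FPKM in the control and 18.1 and 25.1 FPKM in the SMF libraries. Its protein-coding transcript was at 60.6 and 66.6 FPKM in unstimulated, 28.5 and 53.0 FPKM in control and 109.5 and 111 FPKM in SMF libraries, so that the SMF libraries were the highest on it.

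Of 10 ER members tested, 0 were called higher and 1 lower in control against unstimulated cells, 4 higher and 1 lower in SMF-treated against unstimulated cells and 2 higher in SMF-treated against control cells. Of all genes, 12.3% and 12.6%, 22.4% and 14.8%, and 12.5% and 5.72% were called higher and lower in these comparisons. With one median or one sum of coding FPKM, 0 ER members were higher and 1 lower in SMF-treated against control cells. Of all genes, 5.85% and 6.21% were called higher and 9.61% and 8.72% lower on these scalings. The ER share of all members' FPKM went from 15.6% and 13.3% through 12% and 10.9% to 9.48% and 9.58%. Hspa5 (BiP), the HSP70 of the ER, was at 72.2 and 104 FPKM in unstimulated, 144 and 113 FPKM in control and 167 and 189 FPKM in SMF libraries, with the groups apart. Its log2 fold change was 0.48 in SMF against control, and it was called in SMF-treated against unstimulated cells (log2 fold change 1.03 ± 0.28 (SE), adjusted p = 0.0472). On protein-coding transcripts Hspa5 was at 7.47 and 33.6 FPKM in unstimulated, 72.1 and 75.1 FPKM in control and 121 and 164 FPKM in SMF libraries, a wider step from unstimulated to control cells (log2 fold change 2.12). Mitochondrial Hspa9 stood at 0.319 and 0.399 times Hspa5 in the unstimulated, 0.542 and 0.822 times in the control and 1.31 and 1.33 times in the SMF libraries, with no overlap between groups.

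Hsp90b1 (GRP94), the HSP90 of the ER, was at 96.8 and 107 FPKM in unstimulated, 188 and 187 FPKM in control and 363 and 331 FPKM in SMF libraries. Its replicates were close in each group, and its steps of 0.87 and 0.88 on the log2 scale were short of the 2-fold limit. Against unstimulated cells the SMF step was called (log2 fold change 1.76 ± 0.21 (SE), adjusted p = 0.00587). Dnajb11 (ERdj3), a J partner of BiP, was at 23.0 and 20.1 FPKM in unstimulated, 29.7 and 41.3 FPKM in control and 88.8 and 77.3 FPKM in SMF libraries. It rose in SMF-treated against control cells (log2 fold change 1.22 ± 0.31 (SE), adjusted p = 0.151). Dnajc10 (ERdj5), which reduces disulfides, was at 10.3 and 7.28 FPKM in unstimulated, 9.01 and 17.8 FPKM in control and 26.8 and 30.5 FPKM in SMF libraries and was also called there (log2 fold change 1.11). Dnajc3 (P58IPK) was at 12 and 13.3 FPKM in unstimulated, 6.70 and 9.59 FPKM in control and 16.0 and 12.9 FPKM in SMF libraries and was not called in any comparison. Of 11 tested genes for ER folding outside the name rule, 5 rose in control and 9 in SMF-treated against unstimulated cells and 2 in SMF-treated against control cells (12.3%, 22.4% and 12.5% of all genes), among them P4hb, a disulfide isomerase, at 18.9 and 14.4 FPKM in unstimulated, 38.1 and 54.3 FPKM in control and 128 and 119 FPKM in SMF libraries. Sdf2l1, which works with BiP, was at 0 and 3.01 FPKM in unstimulated, 6.16 and 20.2 FPKM in control and 30.4 and 26.7 FPKM in SMF libraries.

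The ER stress element, CCAAT and CCACG with 9 free bases between them on either strand, was in the windows of 3 of 68 members (4.41%) and of 0.137% of the 27025 genes. The 3 were Hspa5, Hsp90b1 and Dnajc3, of 11 ER members with a window, and they are shown from the strand of the gene with the match in capitals because they share a letter pattern.
Hspa5, chr2:34772005-34772063, plus strand: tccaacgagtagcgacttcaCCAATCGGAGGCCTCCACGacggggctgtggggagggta
Dnajc3, chr14:118937807-118937865, plus strand: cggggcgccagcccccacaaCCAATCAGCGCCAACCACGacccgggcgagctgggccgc
Hsp90b1, chr10:86705513-86705676, minus strand: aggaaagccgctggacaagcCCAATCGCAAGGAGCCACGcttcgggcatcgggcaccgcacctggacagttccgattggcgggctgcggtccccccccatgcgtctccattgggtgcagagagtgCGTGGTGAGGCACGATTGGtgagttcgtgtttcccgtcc
In Hsp90b1 the second match reads on the opposite strand. The E-box CACGTG was in windows of 8.82% of the 68 members and of 8.09% of all 27025 genes.

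The small heat shock genes, which hold unfolded proteins without ATP, were mostly at or near 0. Of 8, 3 were tested and none was called in any comparison (0 of 3). Hspb9 was at 23.1 and 19.8 FPKM in unstimulated, 0 and 12 FPKM in control and 8.21 and 9.96 FPKM in SMF libraries, and control replicate 1 was the only library listed at 0. Hspb11, a part of the transport system of cilia that carries the family's name, was at 8.18 and 1.40 FPKM in unstimulated, 8.74 and 7.81 FPKM in control and 4.86 and 9.73 FPKM in SMF libraries, and Hspb6 was at 4.89 and 1.92 FPKM in unstimulated, 4.81 and 1.31 FPKM in control and 1.34 and 5.69 FPKM in SMF libraries. The groups of Hspb11 and Hspb6 overlapped in all comparisons.

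The family medians of 4 families in SMF against control changed sign with the shift to one median. With every library at one median they were -0.02 for HSP110, -0.01 for HSP70, -0.09 for DNAJB and -0.23 for the small heat shock genes. As deposited they were 0.32, 0.34, 0.25 and 0.11. With one sum of coding FPKM they were -0.004, 0.10, -0.01 and -0.13, so that HSP70 kept its sign. The medians of the other families also fell with the shift to one median but stayed above 0. DNAJA went from 1.37 to 1.02, the mitochondrial chaperonin from 1.28 to 0.94 and CCT/TRiC from 1.26 to 0.91. DNAJC went from 0.77 to 0.43 and HSP90 from 0.65 to 0.31. The 1 member called lower on these scalings was Dnajc14, an ER protein, at 75.3 and 61.7 FPKM in unstimulated, 98.6 and 108 FPKM in control and 41.2 and 92.5 FPKM in SMF libraries, with 19.1% of its exon bases facing other genes.

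Which transcripts carried the members' FPKM differed between groups as well. Protein-coding transcripts held 56.9% and 65.9% of it in the unstimulated, 67.6% and 77.6% in the control and 81.1% and 82.8% in the SMF libraries. Retained-intron transcripts held 27.0% and 20.2%, 24.3% and 14.6%, and 12.3% and 11.3%. Over all protein-coding genes the share on protein-coding transcripts was 68.9% and 70.7%, 70.9% and 73.6%, and 78.6% and 77.8%. The members thus lay below all protein-coding genes in both unstimulated libraries and above them in both SMF libraries. Fitted on protein-coding transcripts alone, a choice made after seeing the data, 19 members rose and 5 fell in control against unstimulated cells (14.1% and 10.5% of genes), and 21 of 62 rose in SMF-treated against control cells (17.7% of 9559 genes), with a median of 1.04 against 0.62 for all genes so fitted. The share moved with the run as with the group, and its part in the results was not tested.

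**Figure D5:**
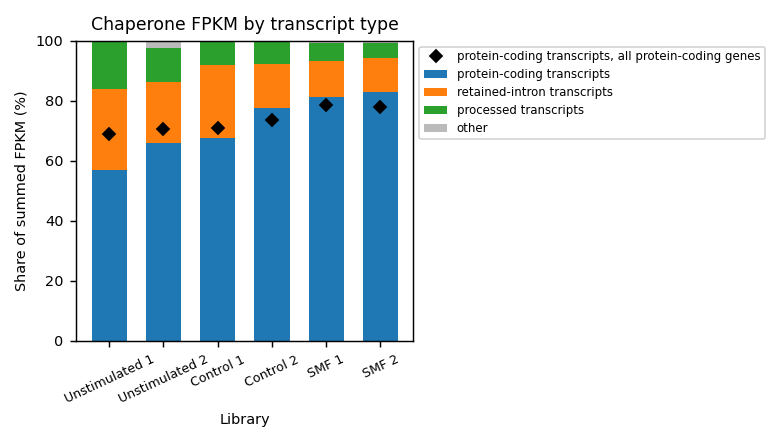
Share of the members' summed FPKM (%) on protein-coding, retained-intron, processed and other transcripts in each library, with diamonds for the share on protein-coding transcripts over all protein-coding genes. The blue bars rise from 56.9% in unstimulated replicate 1 to 82.8% in SMF replicate 2, and the diamonds from 68.9% to 77.8%.

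Genes of the same pathway outside the name rule were counted as well. Of 48 tested, 14 rose and 0 fell in control against unstimulated cells, 28 rose and 0 fell in SMF-treated against unstimulated cells, and 11 rose and 0 fell in SMF-treated against control cells. Of all genes, 12.3% and 12.6%, 22.4% and 14.8%, and 12.5% and 5.72% were called higher and lower there. Bag2, a nucleotide exchange factor of HSP70, was listed at 0 in both unstimulated libraries, at 3.93 and 7.58 FPKM in control and 9.18 and 14.8 FPKM in SMF libraries. It rose in both stimulated groups, and no fold is given against a group at 0. Hspbp1, another exchange factor, was at 0 and 0.929 FPKM in unstimulated, 0 and 12.8 FPKM in control and 14 and 14 FPKM in SMF libraries, and rose in SMF-treated against unstimulated cells (log2 fold change 3.44 ± 1.21 (SE), adjusted p = 0.0867). Ppid, a prolyl isomerase of the HSP90 complex, was at 5.24 and 19.2 FPKM in unstimulated, 22.4 and 21.2 FPKM in control and 107 and 80.4 FPKM in SMF libraries, with the SMF libraries highest. It rose in SMF-treated against control cells (log2 fold change 2.04 ± 0.57 (SE), adjusted p = 0.167). Hsf1, heat shock factor 1, was at 9.27 and 13.3 FPKM in unstimulated, 12.6 and 26.7 FPKM in control and 16.6 and 26.9 FPKM in SMF libraries, and neither it nor Hsf2 was called in any comparison.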

How the data were processed

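RNA was sequenced from 6 libraries of CD8+ T cells made with a stranded total RNA kit. Per the labels' processing notes, the authors used Trimmomatic 0.36, HISAT2 and StringTie on mm10, and the file headers give StringTie 1.3.5 with GENCODE M19, run on annotated transcripts alone. The deposited files list, for each of 137767 annotated transcripts, FPKM and TPM, normalized by the authors' software for length and library size, and coverage, the mean reads per base, which is not normalized. They hold no read counts, so no counting intervals were computed and a 0 is given only as a listing. A further deposited table holds 3 value columns that match no sample and was not used here. Gene FPKM was summed here over transcripts by gene identifier. Protein sequences were not analysed here.

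Depth was coverage times transcript length, summed. On log2(FPKM + 1), limma 3.58.1 (R 4.3.3) was run over all 6 libraries in 3 groups, with a variance trend and 3 residual degrees of freedom, for the genes that averaged 1 FPKM or more. Fold changes on this scale understate those of low genes. Calls took a 2-fold change and an unadjusted p no higher than 0.05, as in the study's methods. The procedure was tested on simulated data. Transcript types came from GENCODE M21 (54409 identifiers matched), promoter sequences from RefSeq, identities from edlib 1.3.9.post1 over the longest reading frames, and tables from Python 3.11.15 with pandas 2.3.3. Positions are those of the authors' files on GRCm38. The members, the lists and the tests were chosen with earlier results of these data known. Values are given for a list of core members and for up to 8 called members with the largest rises and the largest falls in each comparison, and for up to 5 called genes of the pathway list. Dnajc11, Dnajc14, the small heat shock genes, Bag3 and Hsf1 were added after their values were seen. Markers were listed for CD8 T cells, B cells (1 marker is not reported here), myeloid cells, CD4 T cells (Cd4 at most 4.68 FPKM) and erythroid cells (Hba-a1 and Hbb-bs at most 2.77 FPKM). Alternatives were other pseudocounts, filters, scalings, TPM, no variance trend, a replicate block and leaving out each library, and 2 were added after seeing the data.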

Additional observations from a re-analysis of the deposited data

How the results depend on the processing

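Each count and median was recomputed under every alternative. Wherever they were tested, all 18 called members of control against unstimulated cells and all 37 of SMF-treated against unstimulated cells kept their direction, and 18 of the 19 of SMF-treated against control cells did. The exception was Dnajc19, at -0.24 on protein-coding transcripts. Of these members 2, 4 and 2 were not tested under the filter of 5 FPKM or on protein-coding transcripts. Calls held under every alternative but those added after seeing the data for 9 of 18, 20 of 37 and 4 of 19 members. Members called higher in SMF-treated against control cells went from 19 to 6 with one median and to 7 with one sum over protein-coding genes, with 1 lower in each, and the median of 0.55 went to 0.21 and 0.23. Of all genes 5.85% and 6.21% were called higher on these scalings, against 12.5% in the main fit. The members' median was 0.73 with a pseudocount of 0.1, 0.77 with a filter of 5 FPKM and 1.04 on protein-coding transcripts. The median of SMF-treated against unstimulated cells, 1.23, was 1.46 and 0.99 with pseudocounts of 0.1 and 5, 1.03 with no filter, 1.61 with a filter of 5 FPKM, 1.34 with TPM, 0.97 with one median, 1.12 with quantile normalization, 1.76 on protein-coding transcripts and 0.86 with one sum. The 4 members lower there became 2 with a pseudocount of 5, 7 with quantile normalization and 8 with one median or one sum. Of all genes 12.2%, 17.2%, 18% and 19.9% were called lower in these settings, against 14.8% in the main fit. The 5 members lower in control against unstimulated cells became 3 with a filter of 5 FPKM (12.7% of all genes), under which fewer genes were tested. Otherwise the cause was not tested.

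Each library was also left out in turn, a lone library being assumed to vary like the other groups. The counts of called members moved, and so did the shares of all genes called. The medians of the members were 0.35 to 0.82 in control and 1.18 to 1.59 in SMF against unstimulated cells. In SMF against control cells they were 0.55 to 0.73. Those of all genes, in the same order, were -0.10 to 0, 0.24 to 0.32 and 0.26 to 0.35.

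By the folder dates a replicate number marks a shared run in the unstimulated and control groups and none in the SMF group. The deviations of same-numbered libraries correlated across genes at r = 0.096 for unstimulated and control, 0.030 for unstimulated and SMF and 0.021 for control and SMF. With the replicate block 14 members were higher and 5 lower in control against unstimulated, 32 and 5 in SMF against unstimulated, and 18 and 0 in SMF against control cells. Of all genes, 12.1% and 12.3%, 22.4% and 14.8%, and 12.3% and 5.82% were called higher and lower with it.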
